A study of Mus musculus with 16 samples.

Results

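Hepatocyte transcription factors are the genes that switch on and hold the expression program of the main liver cell. The 9 of them described here were chosen by symbol and each was found once among the 25054 gene rows of the deposited table: Hnf4a, Cebpa, Onecut1, Nr1h4, Nr1i2, Nr1i3, Prox1, Foxa3 and Nr0b2. They were followed across all 16 libraries of a study of newborn C57BL/6J mouse pups whose parents were heterozygous for a Man1a2 null allele, which lacks exon 2. Male and female parents had drunk N-acetyl cysteine (NAC, up to 1 g per kg body weight, an antioxidant that restores glutathione) or water as placebo from a week before breeding until delivery. There were 4 pup groups, with WT and heterozygous pups that lived, and heterozygous and null pups that died. Live pups were harvested at 24 h and dead pups at death within 24 h, so survival and age at harvest cannot be told apart. The paper reports that null pups died very soon after birth under both treatments. By their labels, the null libraries thus came from pups much younger than the live ones. Age may also differ between dead null and dead heterozygous pups, and its part in the levels was not tested. All WT libraries came from live and all null libraries from dead pups, so genotype goes with survival except in heterozygous pups. Each library was 1 pool of RNA, from 3 experiments, or from 2 for dead heterozygous pups, and each combination of pup group, treatment and labelled tissue (lung or liver) had 1 library.

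The marker content of the libraries went against their tissue labels in 8 of the 16. A library was called liver-content with at least 50000 counts of Alb (albumin) per 1000000 counts (CPM, here on library size alone), lung-content with at least 1000 CPM of Sftpc (surfactant protein C) and under 1000 CPM of Alb, and mixed otherwise. The 8 liver-content libraries were labelled live WT placebo lung, live WT NAC liver, live heterozygous placebo lung, live heterozygous NAC liver, dead heterozygous placebo liver, dead heterozygous NAC lung, dead null NAC lung and dead null NAC liver. All others were lung-content (7 libraries) except the library labelled dead null placebo lung, which was mixed, with 9280 CPM of Alb and 5553 CPM of Sftpc. Summed over 12 hepatocyte markers, the liver-content libraries held from 140600 to 210000 CPM and the lung-content libraries from 248 to 1456 CPM, while 12 lung epithelial markers summed to 67.2 to 92.9 CPM and to 10620 to 24350 CPM. Libraries held from 7236865 to 16107749 counts (14115802 to 16107749 in the liver-content libraries), of which Rn45s, a ribosomal RNA precursor, made up 0.85% to 26.19%. A library is named below by its label, whatever its content, and whether the labels for pup group and treatment hold where the tissue label does not was not tested. No source used here says how far the pools are separate animals, so p-values measure the spread between these pools only. In bulk tissue fewer cells of a type and less RNA per cell cannot be told apart.

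In the liver these factors form a network whose members regulate one another. Hnf4a, a nuclear receptor, and Cebpa, a basic leucine zipper protein, drive most hepatocyte genes, Foxa3 opens chromatin in liver, and Onecut1 (HNF6) acts in hepatocyte and bile duct development. Prox1, a homeobox protein known also for lymphatic endothelium, binds Hnf4a as a co-repressor. Nr1h4 (FXR) senses bile acids, Nr0b2 (SHP) is its target and a repressor without a DNA-binding domain, and Nr1i2 (PXR) and Nr1i3 (CAR) sense foreign compounds and drive cytochrome P450 genes.

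RefSeq promoter windows on GRCm38.p6, running from 250 bases before to 50 bases after a start site, were found for 9 of the 9 genes, with 11 windows in all because Hnf4a and Prox1 have a pair each. The upstream parts of 5 windows with a match to a motif of the network itself or of the core promoter are shown. The first Prox1 window also held a match and is not shown. The 5 parts are written 5′ to 3′ and stop before any annotated exon of the gene, with matches in capitals.
Hnf4a (chr2:163506607-163506807, plus strand): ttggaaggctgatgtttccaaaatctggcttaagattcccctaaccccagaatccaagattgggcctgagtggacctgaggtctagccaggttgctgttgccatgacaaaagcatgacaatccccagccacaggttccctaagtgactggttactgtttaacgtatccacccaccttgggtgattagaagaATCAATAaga
Cebpa (chr7:35119043-35119292, plus strand): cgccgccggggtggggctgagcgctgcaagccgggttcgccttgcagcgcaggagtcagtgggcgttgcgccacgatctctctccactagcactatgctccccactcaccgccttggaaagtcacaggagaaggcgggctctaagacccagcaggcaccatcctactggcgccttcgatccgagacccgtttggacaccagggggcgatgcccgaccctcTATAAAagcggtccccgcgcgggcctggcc
Nr1h4 (chr10:89506659-89506908, minus strand): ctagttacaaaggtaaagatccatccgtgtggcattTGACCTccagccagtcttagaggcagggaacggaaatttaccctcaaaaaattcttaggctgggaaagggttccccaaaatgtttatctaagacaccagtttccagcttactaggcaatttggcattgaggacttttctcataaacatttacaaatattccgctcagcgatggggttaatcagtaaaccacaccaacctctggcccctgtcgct
Foxa3 (chr7:19023540-19023789, minus strand): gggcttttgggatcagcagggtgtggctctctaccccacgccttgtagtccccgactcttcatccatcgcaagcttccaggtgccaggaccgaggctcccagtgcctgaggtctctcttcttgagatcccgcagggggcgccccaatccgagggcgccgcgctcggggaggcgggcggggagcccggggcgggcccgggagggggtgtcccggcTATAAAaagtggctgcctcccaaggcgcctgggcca
Nr0b2 (chr4:133553126-133553375, plus strand): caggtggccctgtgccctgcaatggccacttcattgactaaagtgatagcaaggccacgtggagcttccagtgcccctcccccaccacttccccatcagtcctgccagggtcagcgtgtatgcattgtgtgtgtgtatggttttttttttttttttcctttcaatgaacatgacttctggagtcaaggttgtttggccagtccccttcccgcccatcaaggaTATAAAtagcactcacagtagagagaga
In the first Hnf4a window the capitals mark ATCAATA, the letters of an Onecut site, which lay 59 to 53 bases before the start site and was present in 2.05% of all 32851 windows. In the windows of Cebpa, Foxa3 and Nr0b2 they mark TATAAA, read along the gene, which ended 25, 31 and 23 bases before the start site, and the first Prox1 window held it on the other strand. TATAAA was thus in 4 of the 11 windows, against 13.6% of all windows. In the Nr1h4 window they mark AGGTCA, the hexamer that nuclear receptors bind, on the other strand (in 16.3% of all windows). All motifs were searched on both strands. The HNF4 motif CAAAGTCCA, found in 0.475% of all windows, matched none of the 11. Nor did CAAGGTCA, the motif of NR5A receptors, which holds the receptor hexamer and was found in 1.56%. No match was found for TGTTTAC, a FOXA motif present in 3.65%. The C/EBP motif TTGCNNAA, present in 10.8%, was also without a match. These are matches of letters in a short window and not measured binding.

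Of the 9 factors, 8 were higher in every liver-content library than in every lung-content library, and only Cebpa overlapped. Of the 14078 genes that averaged 1 CPM or more, 26.6% separated in this direction. Levels of single genes are given from here on as CPM scaled by edgeR's TMM factors over the 16 libraries. Sums over marker lists stay on library size alone. Because content was set from Alb and Sftpc of the same libraries, this contrast is a description without a test.

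Onecut1 had no count in any of the 7 lung-content libraries and from 5.66 to 14.0 CPM in the liver-content libraries, which is at least 216-fold against a floor of 3 counts over the lung-content libraries together. Nr1i3 had 3 counts over the 7 lung-content libraries and Nr0b2 had 1. For these genes the mean liver-content level was divided by the level from counts and scaled library sizes pooled over the 7 lung-content libraries. The ratio was 1242 for Nr1i3, with a 95% interval of 425 to 6021 from counting error alone. It was 1238 for Nr0b2, with an interval of 222 to 48885. The lung-content libraries held 21 counts of Hnf4a, 21 of Foxa3, 26 of Nr1i2 and 8 of Nr1h4 in total. Their ratios of mean levels were 1198, 229, 163 and 375. No lung-content library reached 1 CPM for any of these 7 genes.

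Prox1 and Cebpa were the factors with steady levels where hepatocytes should be absent. Prox1 had from 3.27 to 6.31 CPM in the lung-content libraries, median 4.45, and from 14.0 to 39.95 CPM in the liver-content libraries, a 6.39-fold difference of the means. Cebpa had from 87.8 to 164 CPM in the lung-content libraries, median 92.6, against 122 to 264 CPM, median 197, in the liver-content libraries. The mean of Cebpa was 1.81-fold higher in the liver-content libraries, but 1.13-fold on library size alone, a scaling that moved the median liver-minus-lung difference of all genes from 0.09 to −0.52 on the log2(CPM + 1) scale. The lung epithelium also uses Cebpa, and lymphatic vessels use Prox1.

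The mixed library stood above every lung-content library for 8 factors and, of these, below every liver-content library for 7. It held 68.5 CPM of Hnf4a, 1.01 of Onecut1, 9.50 of Nr1h4, 10.6 of Nr1i2, 12.6 of Nr1i3, 11.1 of Prox1, 8.70 of Foxa3 and 3.64 of Nr0b2. These were from 13% (Foxa3) to 33.4% (Nr1i3) of the liver-content median, Cebpa was at 45.5%, and Alb, on the same scaling, was at 7.53%. The exception was Nr0b2, for which it was above the lowest liver-content library.

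**Figure D1:**
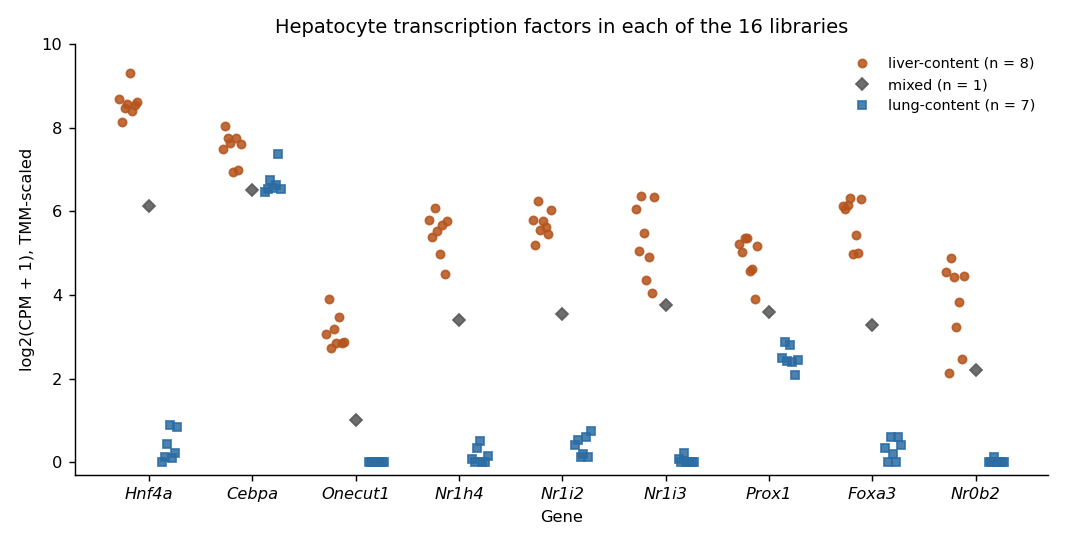
Points are single libraries, the horizontal axis gives the 9 genes and the vertical axis log2(CPM + 1) after TMM scaling, with colours and shapes for the 8 liver-content, 7 lung-content and 1 mixed library. Only Cebpa overlaps between liver-content and lung-content libraries, and Prox1 is the other factor clearly above 0 in lung-content libraries.

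Within the liver-content libraries the levels per kb of exon, over the median of 8 libraries, ran from 77.8 CPM per kb for Hnf4a and 74.6 for Cebpa through 32.9 for Foxa3, 20.7 for Nr1h4, 19.8 for Nr1i2, 14.9 for Nr0b2, 8.56 for Nr1i3 and 3.99 for Prox1 to 1.66 for Onecut1. Exon length was the union of all annotated exons of a gene, so this order need not be that of transcript numbers. On CPM alone, the median of Nr1i3 (37.8) was above that of Nr0b2 (16.85). Neighbours in the order per kb were not always apart. Hnf4a was above Cebpa in 5 of 8 libraries and Nr1h4 above Nr1i2 in 4 of 8, whereas Cebpa was above Foxa3, Nr1i3 above Prox1 and Prox1 above Onecut1 in 8 of 8.

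The CPM of each factor in each liver-content library is given next, first for the live libraries labelled WT placebo lung, WT NAC liver, heterozygous placebo lung and heterozygous NAC liver, and then for the dead libraries labelled heterozygous placebo liver, heterozygous NAC lung, null NAC lung and null NAC liver. Hnf4a had 414, 281, 353 and 380 CPM in the live libraries and 630, 339, 372 and 392 in the dead libraries. The library labelled dead heterozygous placebo liver stood above all others, and the rest of the dead libraries lay within the live range. Cebpa had 179, 264, 216 and 199 CPM in the live libraries and 122, 215, 125 and 194 in the dead libraries. It was lowest in the library where Hnf4a was highest, and the groups overlapped.

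Onecut1 had 7.31, 14.0, 5.66 and 8.09 CPM in the live libraries and 6.21, 10.1, 6.24 and 6.36 in the dead libraries. The libraries labelled live WT NAC liver and dead heterozygous NAC lung were the highest. Onecut1 is also a pancreas gene, and 9 pancreas markers (12 gene rows) summed to 625 CPM in the library labelled dead heterozygous NAC lung against 23.0 to 120 CPM in the other liver-content libraries. In the library with the highest Onecut1 they summed to 23.0 CPM, the lowest of the 8. The part of pancreas RNA in the Onecut1 levels was not tested.

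The bile acid receptor Nr1h4 had 54.4, 40.6, 66.2 and 45.1 CPM in the live libraries and 30.3, 50.0, 21.5 and 53.2 in the dead libraries. Nr0b2, its target, had 22.3, 3.42, 28.6 and 20.5 CPM in the live libraries and 8.35, 13.2, 4.56 and 20.9 in the dead libraries. Nr0b2 varied 8.36-fold, and its lowest level was in a live library, labelled WT NAC liver.

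The xenobiotic receptor Nr1i2 had 54.2, 35.8, 75.2 and 46.1 CPM in the live libraries and 53.1, 48.1, 43.0 and 64.6 in the dead libraries. Nr1i3 had 65.3, 31.9, 80.9 and 43.7 CPM in the live libraries and 19.6, 29.1, 15.7 and 80.8 in the dead libraries. Nr1i3 thus varied 5.17-fold and Nr1i2 2.10-fold, and for both genes dead and live libraries overlapped. Exons of Nr1i3 overlap those of Tomm40l on the opposite strand, and the use of strand in counting is not given in the sources used here. Tomm40l ran from 12.2 to 59.6 CPM over the liver-content libraries, with its extremes in the libraries labelled dead null NAC lung and dead null NAC liver, and from 6.31 to 13.7 CPM in the lung-content libraries, where Nr1i3 had 3 counts in all.

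Prox1 had 36.1, 31.8, 39.95 and 39.8 CPM in the live libraries and 22.8, 23.5, 14.0 and 35.1 in the dead libraries. Foxa3 had 68.5, 65.5, 70.3 and 79.4 CPM in the live libraries and 30.8, 42.2, 30.9 and 77.4 in the dead libraries. For both genes 3 of the 4 dead libraries lay below every live library, and the library labelled dead null NAC liver lay within the live range.

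The spread of the factors over the liver-content libraries was above the usual spread. On the log2(CPM + 1) scale the highest minus the lowest library was 2.74 for Nr0b2, 2.30 for Nr1i3, 1.58 for Nr1h4, 1.45 for Prox1, 1.34 for Foxa3, 1.17 for Onecut1, 1.16 for Hnf4a, 1.11 for Cebpa and 1.05 for Nr1i2. The median over the 9340 genes that averaged 10 CPM or more was 0.91, and 98.0% of them had a smaller range than Nr0b2, 96.1% than Nr1i3 and 61.6% than Nr1i2.

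The libraries labelled live WT placebo lung, live heterozygous placebo lung, live heterozygous NAC liver and dead null NAC liver were the 4 highest for Nr1i3, Prox1, Foxa3 and Nr0b2. These libraries mix live and dead pups, both treatments and both tissue labels. This set of 4 was taken from the levels of Nr1i3, which therefore matches it by construction. The same 4 libraries were the highest for 18.3% of 13290 genes and the lowest for 1778 of them. Thus 4 of 9 factors is to be read against a pattern shared by many genes. Erythroid markers (11 genes) summed to 24100, 9250, 43200 and 10800 CPM in these 4 libraries in the order given, and the other 4 had 56300 (live WT NAC liver), 45700 (dead heterozygous placebo liver), 55200 (dead heterozygous NAC lung) and 37600 CPM (dead null NAC lung). These sums are on library size alone, unlike the levels of the factors. The part of erythroid RNA in those levels was not tested. Of these 4 libraries, 3 were among the 4 highest for Hnf4a, Nr1h4 and Nr1i2, and 2 for Cebpa and Onecut1, and Cebpa and Onecut1 were both highest in the library labelled live WT NAC liver.

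**Figure D2:**
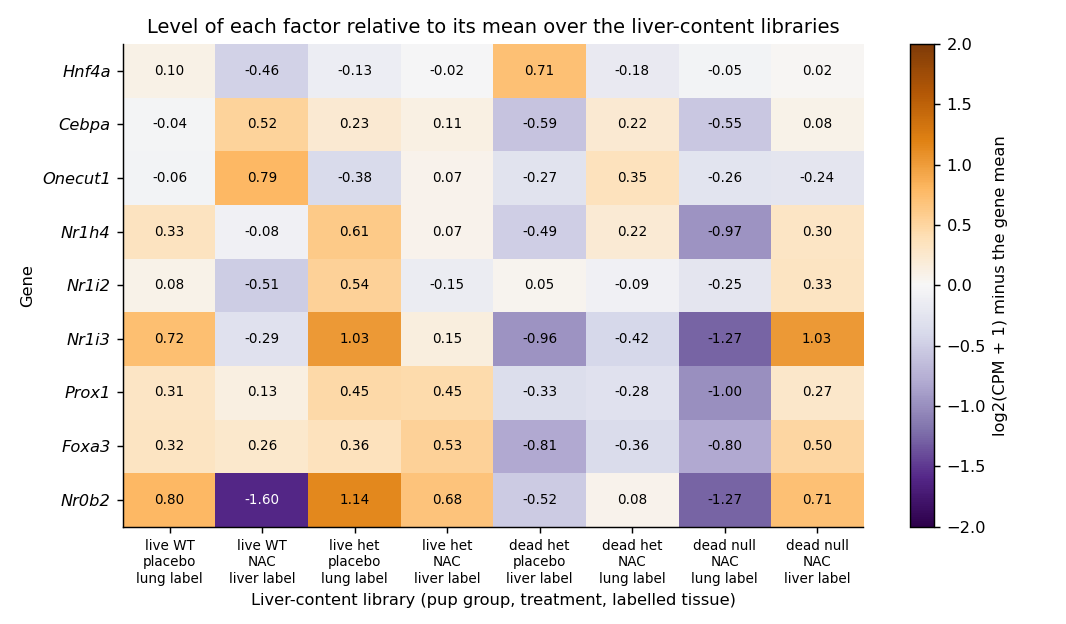
Each cell gives log2(CPM + 1) of a factor in 1 of the 8 liver-content libraries minus that gene's mean over them, with genes as rows and libraries, by label, as columns. Values run from −1.60 (Nr0b2, live WT NAC liver) to 1.14 (Nr0b2, live heterozygous placebo lung), and Hnf4a reaches 0.71 in the library labelled dead heterozygous placebo liver and lies between −0.46 and 0.10 in the others.

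As a measure of likeness, the root mean square difference of centred log2(CPM + 1) over the 8 liver-content libraries was smallest between Prox1 and Foxa3 (0.21), Nr1h4 and Prox1 (0.25) and Cebpa and Onecut1 (0.31). Among the 9332 other genes that averaged 10 CPM or more, the nearest to Hnf4a were Edem3 (0.11), Scyl3 (0.12) and Ftsj3 (0.12). Each was lowest in the library labelled live WT NAC liver and highest in that labelled dead heterozygous placebo liver, as Hnf4a was. Because they were picked for likeness over these same libraries, the shared extremes are not a separate result. The nearest to Nr0b2 were Cyp4a10 (0.30), 1810019D21Rik (0.30) and Ccbl2 (0.31).

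Libraries labelled dead null NAC lung and dead null NAC liver shared liver content and, by their labels, pup group and treatment. Nr1i3 had 15.7 and 80.8 CPM, a 5.16-fold difference, and Nr0b2 differed 4.59-fold, Prox1 and Foxa3 each 2.51-fold and Nr1h4 2.47-fold, all higher in the library labelled liver. Cebpa differed 1.55-fold and Nr1i2 1.50-fold, while Hnf4a (372 and 392 CPM) and Onecut1 (6.24 and 6.36 CPM) were nearly level. Of the 9340 genes that averaged 10 CPM or more, 21.5% differed by at least 2-fold on the log2(CPM + 1) scale between these libraries. Alb went the other way, with 141571 and 60209 CPM. Xist, transcribed from the inactive X chromosome, had 303 CPM in the library labelled lung and 0.40 CPM in that labelled liver. All other liver-content libraries had from 225 to 559 CPM of Xist, and its bearing on the factors was not tested.

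Dead were compared with live pups over the 8 liver-content libraries, with treatment as a covariate, by edgeR's quasi-likelihood test across all genes. No factor passed a Benjamini-Hochberg adjusted p of 0.05, and neither did any of the 13290 genes tested (0%). Unadjusted p-values under 0.05 numbered 678 genes, and DESeq2 called 45 genes, none of them among the 9. The estimate was below 0 for 7 of 9 factors, with a median of −0.47 on the log2 scale, against −0.01 for all genes, of which 51.0% were below 0. Foxa3 had the lowest estimate, −0.75 (SE 0.31, adjusted p = 0.8049 by edgeR's test, n = 4 dead and 4 live), and it was the only factor with an unadjusted p under 0.05 (0.0391). Prox1 stood at −0.63 (SE 0.28), Nr1i3 at −0.52 (SE 0.62), Cebpa at −0.49 (SE 0.23), Nr0b2 at −0.47 (SE 0.70), Onecut1 at −0.37 (SE 0.28) and Nr1h4 at −0.37 (SE 0.34). Nr1i2 stood at 0.12 (SE 0.24) and Hnf4a at 0.36 (SE 0.20). Adjusted p-values of the 9 lay between 0.8049 and 0.9124. With genotype added to the model, an alternative chosen after seeing the data, dead are compared with live pups among heterozygotes, and no gene was called. Foxa3 then stood at −1.04 (SE 0.43), Nr1i3 at −1.25 (SE 0.78), Nr0b2 at −1.06 (SE 0.92) and Prox1 at −0.78 (SE 0.43), while Onecut1 turned to 0.22 (SE 0.29) and Nr1i2 to −0.22 (SE 0.28), with adjusted p-values of the 9 from 0.5763 to 0.7525 by edgeR's test.

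A single library moved several of these values. Without the library labelled dead null NAC liver the estimate became −1.06 for Foxa3, −0.85 for Prox1 and −1.19 for Nr1i3, with adjusted p-values of 0.0918 to 0.15 for these genes by edgeR's test, and 10 genes outside the 9 were called. Without the library labelled dead heterozygous placebo liver, Nr1i3 moved to 0.15, Nr0b2 to 0.10 and Nr1h4 to −0.0438, and the median of the 9 to −0.04. Without the library labelled live WT NAC liver, Onecut1 moved to −0.0818. Pancreas markers were above 0 in 6 of 6 and erythroid markers in 8 of 9 tested for the same contrast, none called. Neutrophil markers were above 0 in 8 of 10 and cholangiocyte markers in 4 of 6, none called. Hepatocyte markers were above 0 in 5 of 12, with a median of −0.04, none called. Macrophage markers were below 0 in 10 of 10, with a median of −0.62, none called. They summed to 625 to 774 CPM in the live and 361 to 769 CPM in the dead libraries, and their part in the estimates was not tested.

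NAC was compared with placebo over the same 8 libraries (5 NAC and 3 placebo), with survival as a covariate. Neither any factor nor any other of the 13290 genes was called (0%), with 273 unadjusted p-values under 0.05 and 1 gene called by DESeq2, not among the 9. Hnf4a stood at −0.46 (SE 0.20, adjusted p = 0.9996 by edgeR's test, unadjusted 0.0471). It had 414, 353 and 630 CPM with placebo and 281, 380, 339, 372 and 392 CPM with NAC, so the groups overlapped. Without the library labelled dead heterozygous placebo liver its estimate was −0.21. Onecut1 stood at 0.56 (SE 0.30), Cebpa at 0.36 (SE 0.24), Foxa3 at 0.33 (SE 0.32), Nr0b2 at −0.43 (SE 0.72) and Nr1i2 at −0.40 (SE 0.24), and Nr1i3, Nr1h4 and Prox1 were between −0.19 and −0.01. In all, 6 of 9 estimates were below 0, with a median of −0.11. For all genes the median was 0.004, and 49.2% were below 0. Without the library labelled live WT NAC liver 2 of 9 factors were below 0, with Nr0b2 at 0.17 and Nr1i3 at 0.21. Without that labelled live heterozygous placebo lung 3 of 9 were. Onecut1 came to 0.30 without the library labelled live WT NAC liver, and Foxa3 to 0.0625 without that labelled dead heterozygous placebo liver and to 0.135 without that labelled dead null NAC liver.

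Live WT, live heterozygous and dead heterozygous pups each had 1 placebo and 1 NAC library of liver content. Onecut1 was higher with NAC in 3 of 3 of these pup groups, as were 17.3% of the 13290 genes. Nr1i2 was lower with NAC in 3 of 3, as were 18.3% of genes, and the other 7 factors were higher in some pup groups and lower in others. With pup group as a block, also chosen after seeing the data, Onecut1 stood at 0.72 (SE 0.24, unadjusted p = 0.0217 and adjusted p = 0.9423 by edgeR's test), Nr1i2 at −0.48 (SE 0.23) and Nr0b2 at −0.77 (SE 0.80), and no gene was called.

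The marker lists were counted for the same contrast. Pancreas, cholangiocyte, erythroid and neutrophil markers were above 0 in 6 of 6, 6 of 6, 9 of 9 and 10 of 10 tested. Hepatocyte markers were above 0 in 4 of 12, with a median of −0.05. Macrophage markers were above 0 in 9 of 10, stellate and fibroblast markers in 6 of 9, and lung epithelial markers in 5 of 7. Endothelial markers were above 0 in 4 of 8, lymphatic endothelial markers in 4 of 5, and intestine and stomach markers in 1 of 3. None of these markers was called, and their part in the estimates was not tested.

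The difference between the NAC effect in dead and in live pups was also tested, as an interaction term, although dead placebo pups were represented by 1 liver-content library. No gene of 13290 was called (0%), with 245 unadjusted p-values under 0.05 and 0 genes called by DESeq2. Nr1i3 had the highest estimate of the 9 factors, 2.05 (SE 1.05), followed by Nr0b2 with 1.71 (SE 1.33), and adjusted p-values lay between 0.8686 and 0.9518. Nr0b2 moved to 0.94 without the library labelled live WT NAC liver, to 1.17 without dead null NAC liver and to 3.52 without live heterozygous NAC liver, above Nr1i3 in the last 2 cases, and Nr1i3 to 1.15 without dead null NAC liver.

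**Figure D3:**
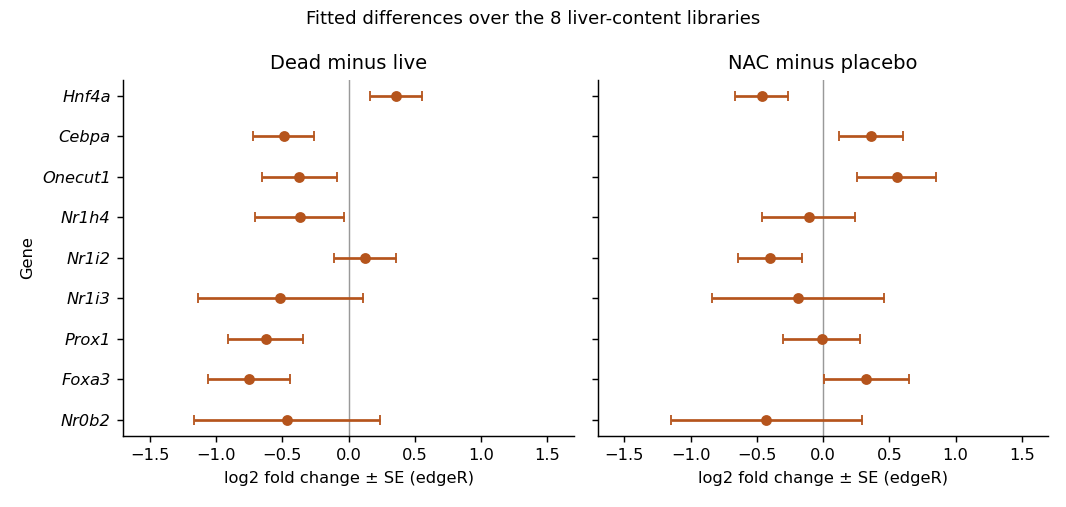
Points are log2 fold changes from edgeR over the 8 liver-content libraries and bars are ± 1 SE, for dead minus live pups on the left and NAC minus placebo on the right, with genes on the vertical axis. In the left panel 7 of 9 factors lie below 0, and no factor in either panel passed the adjusted threshold.

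In the lung-content libraries only Cebpa and Prox1 had a mean of at least 1 CPM and were tested. Dead against live, Cebpa stood at 0.32 (SE 0.19) and Prox1 at −0.38 (SE 0.27), both with an adjusted p of 0.9993 by edgeR's test (n = 3 dead and 4 live). None of 13659 genes was called (0%), with 490 unadjusted p-values under 0.05, and DESeq2 called 19 genes, neither factor among them. Cebpa had 87.8, 91.9, 107 and 92.6 CPM in the live libraries labelled WT placebo liver, WT NAC lung, heterozygous placebo liver and heterozygous NAC lung, and 98.7, 164 and 91.0 CPM in the dead libraries labelled heterozygous placebo lung, heterozygous NAC liver and null placebo liver. The Cebpa estimate became −0.04 without the library labelled dead heterozygous NAC liver, where it was highest. For NAC against placebo, 13.9% of 13659 genes were called, and neither factor was. The 1897 calls behind this share became 872 on library size alone, 0 without the library labelled live WT placebo liver or live heterozygous placebo liver, 1 without live heterozygous NAC lung, and 3601 with pup group as a block. Cebpa stood at 0.28 (SE 0.19, adjusted p = 0.3177) and Prox1 at 0.13 (SE 0.26, adjusted p = 0.7456) by edgeR's test, and on library size alone, where the median of all genes moved from −0.02 to −0.24, Prox1 stood at −0.10.

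Other genes of the same pathways were counted from lists. For dead against live pups in the liver-content libraries, 22 of 37 partner regulators were below 0 with a median of −0.17, and none was called. Rxra, the dimer partner of Nr1h4, Nr1i2 and Nr1i3, stood at 0.31 (SE 0.30), Foxa2 at −0.61 (SE 0.43), Cebpb at 0.47 (SE 0.43) and Nr5a2, which binds the Nr0b2 promoter, at 0.13 (SE 0.21). Foxa2 had 23.8, 10.6, 24.4 and 23.7 CPM in the live libraries and 9.55, 17.01, 6.93 and 19.95 in the dead libraries, in the order used above, so that the groups overlapped. In the Nr1h4 and Nr0b2 circuit of bile acids, 13 of 16 tested genes were below 0, with a median of −0.31, and none was called. Abcb11, the bile salt export pump and a target of Nr1h4, stood at −0.72 (SE 0.335), Slc10a1, which takes up bile salts, at −0.43 (SE 0.25) and Cyp7a1, the rate-limiting enzyme of bile acid synthesis, at −0.35 (SE 0.29). Abcb11 had 278, 218, 329 and 320 CPM in the live libraries and 103, 256, 147 and 255 in the dead libraries, and its lowest level was in the library labelled dead heterozygous placebo liver.

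Among Nr1i2 and Nr1i3 targets, 19 of 25 tested genes were below 0 with a median of −0.23, none called. Cyp3a11, a target of Nr1i2, had 694, 156, 1010 and 734 CPM in the live libraries and 637, 342, 370 and 720 in the dead libraries, and its estimate was −0.08 (SE 0.49). Cyp2b10, a target of Nr1i3, had 6.75, 0.19, 6.21 and 3.80 CPM in the live libraries and 5.17, 1.17, 0.50 and 4.69 in the dead libraries. The lowest value, from 2 counts, was in the library labelled live WT NAC liver, where Nr0b2 was also lowest, and the estimate was −0.07 (SE 0.84). Among targets of Hnf4a and Cebpa, 17 of 26 were below 0 with a median of −0.11, none called. Tat, tyrosine aminotransferase, chosen here after its values were seen, had the highest estimate of that list (2.25).

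For NAC against placebo none of these lists held a called gene. In them 17 of 37, 10 of 16, 16 of 25 and 17 of 26 genes were below 0, and the medians were 0.04 for partner regulators, −0.12 for the bile acid circuit, −0.23 for Nr1i2 and Nr1i3 targets and −0.05 for Hnf4a and Cebpa targets. Cyp2b10 had the lowest estimate among Nr1i2 and Nr1i3 targets, −1.50 (SE 0.83), and Cyp3a11 stood at −0.72 (SE 0.50).

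The study compared NAC with placebo between libraries that share pup group and labelled tissue. With 1 library on each side no test is given, and a factor was counted as past the fold at an absolute log2 fold change of at least 1. Under the lung label, 8 of 9 factors were past it in live WT pups and 9 of 9 in live heterozygous pups, all lower with NAC, in comparisons where 29% and 32.2% of all genes were. In dead heterozygous pups 9 of 9 were higher with NAC (25.8% of all genes), and in dead null pups 5 of 9 (22.3%). Under the liver label, 9 of 9 factors were higher with NAC in live WT pups (25.1%), 8 of 9 in live heterozygous pups (25.6%) and 9 of 9 in dead null pups (29.5%), and 8 of 9 were lower in dead heterozygous pups (26.4%).

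Marker content went with these directions in 8 of 8 pairs. Where the factors were lower with NAC, the placebo library was liver-content and the NAC library lung-content, and where they were higher the placebo library was lung-content, or mixed in dead null pups under the lung label, and the NAC library liver-content. Hnf4a had 5211 counts in the placebo and 1 in the NAC library of live WT pups labelled lung, and 0 and 3032 counts under the liver label, a log2 difference of at least 10.8 against a floor of 3 counts. Treatment and tissue content cannot be told apart in these pairs. In the pair of dead null pups under the lung label, where the placebo library was mixed, Hnf4a had 68.5 and 372 CPM, a log2 fold change of 2.44, Onecut1 1.01 and 6.24 CPM (2.61) and Nr1i2 10.6 and 43.0 CPM (2.02). Nr1i3 (12.6 and 15.7 CPM), Prox1 (11.1 and 14.0) and Nr0b2 (3.64 and 4.56) had log2 fold changes of 0.31, 0.33 and 0.32 in that pair. Cebpa, which both contents express, stayed between −1.22 and 1.59 over the 8 pairs.

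**Figure D4:**
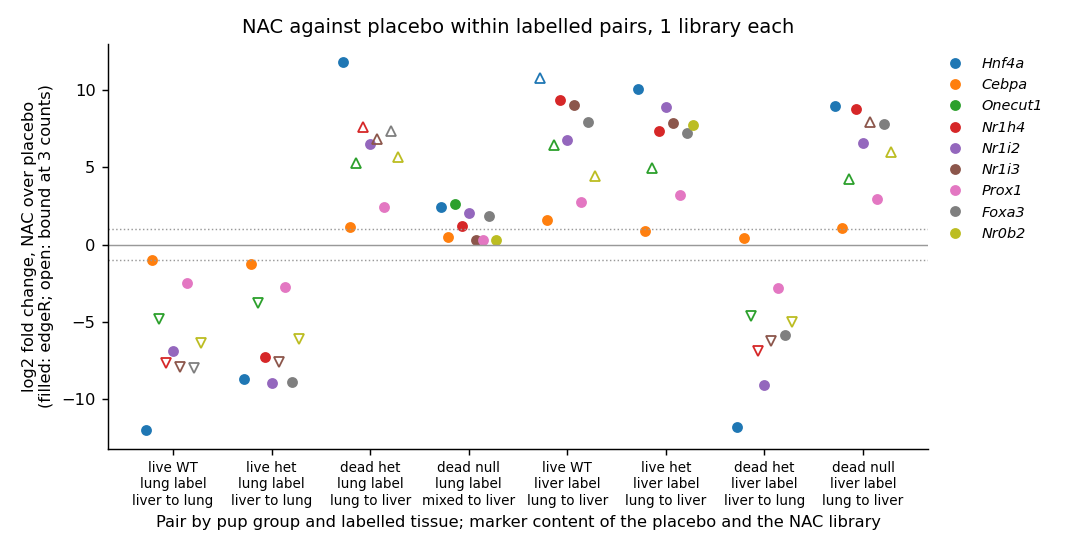
Each column is a pair of libraries by pup group and labelled tissue, with the marker content of the placebo and then the NAC library under it, and points are log2 fold changes of NAC over placebo for the 9 factors. Filled points are edgeR values, which are imprecise where a side had 1 to 3 counts, open triangles are bounds against a floor of 3 counts where a side had none, and dotted lines mark −1 and 1. Pairs from liver to lung content lie below 0, apart from Cebpa in dead heterozygous pups, and pairs from lung or mixed to liver content lie above it.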

How the data were processed

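RNA of newborn pup lung and liver was sequenced as 16 pooled libraries. The table that the authors deposited gives estimated counts for each symbol with no scaling, made from adapter-trimmed reads aligned to Mouse.B38 (GRCm38) with the Omicsoft Sequence Aligner and kept where uniquely mapped. The submitters' processing notes name R 4.0.3 and edgeR 3.30.3. Between 6.5% and 8.24% of values per library were not whole, and all were rounded before any test, although the design was written for counts. Rows that share a symbol were kept apart.

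Libraries held 7236865 to 16107749 counts, and a floor of 3 counts and 95% intervals cover counting error only. TMM factors were taken over the 16 libraries. Within a content, edgeR 4.0.16 (R 4.3.3) quasi-likelihood tests with survival and treatment as terms used genes that averaged 1 CPM or more and a Benjamini-Hochberg adjusted p under 0.05 over all of them. A standard error is the absolute log2 fold change divided by the square root of the F statistic. DESeq2 1.42.0, other scalings and filters, another model and leaving out each library were alternatives, and genotype or pup group in the model was added after seeing the data. Labelled pairs were compared by fold change with a prior count of 0.125. The tests were also run on simulated data with known changes and a single spread set for all genes. This run therefore does not give their power in the real data. Named genes were the 9 factors, fixed partners and targets (1 of them is not reported here), the genes past the threshold in each list (none was), and the 3 genes nearest to Hnf4a and to the factor with the widest range. Content was set by the stated marker rule, and the members, lists and content rule were chosen with earlier results of these data known. Positions and exon lengths come from GENCODE on GRCm38 and promoter windows from RefSeq on GRCm38.p6, and tables were made with Python 3.11.15 and pandas 2.3.3.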

Additional observations from a re-analysis of the deposited data

Results flagged for a closer look

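In 42 groups of 4 to 8 values, a value was singled out where its gap to the nearest other value exceeded Dixon's 95% critical share of the range. These were the 9 factors over all, live, dead or NAC liver-content libraries, and Cebpa and Prox1 over all, live or placebo lung-content libraries. Chance marks about 1 in 20 such groups, and 3 values were marked. Hnf4a stood at 630 CPM in the library labelled dead heterozygous placebo liver, against 414 CPM in the next of the 8 liver-content libraries. Onecut1 stood at 10.1 CPM in the library labelled dead heterozygous NAC lung, against 6.36 CPM in the next of the 4 dead liver-content libraries. Cebpa stood at 164 CPM in the library labelled dead heterozygous NAC liver, against 107 CPM in the next of the 7 lung-content libraries.

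Under the lung label, all 9 factors were lower with NAC in both live pup groups and higher with NAC in both dead pup groups. This opposite direction was not tested, since each pair holds 1 library on each side, and in these 4 pairs the marker content of the NAC library was lung in the live and liver in the dead groups.

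The mixed library, which was left out of the fits as planned, held 8 of the 9 factors above their highest level in the 7 lung-content libraries. The exception was Cebpa, at 89.4 CPM within a lung-content range of 87.8 to 164 CPM.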

How the results depend on the processing

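The count of factors called was 0 in each of the 5 tests under every alternative that could be fitted. In lung-content libraries it covers only Cebpa and Prox1, as factors fitted there only without the filter on low counts were not counted. No paired analysis was possible because the labels give no replicate numbers, each combination of pup group, treatment and labelled tissue holding 1 library. Pup group as a block took its place. The counts over all genes moved more. For dead against live pups in liver-content libraries, DESeq2 called 45 genes, no filter on low counts 1, and leaving out 1 library in turn 0 to 10, the 10 without the library labelled dead null NAC liver. DESeq2 called 1 gene for NAC against placebo in liver-content libraries and 19 for dead against live pups in lung-content libraries, where no filter gave 1. For NAC against placebo in lung-content libraries the 1897 genes became 872 on library size alone, 3601 with pup group as a block and 0 to 4091 when 1 library was left out. They were 0 without the library labelled live WT placebo liver or live heterozygous placebo liver and 1 without live heterozygous NAC lung. Without dead heterozygous placebo lung they were 35, and without live WT NAC lung 978. Calls rose to 2135 without dead heterozygous NAC liver and to 4091 without dead null placebo liver. The cause of these moves was not tested.

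Estimates of single factors near 0 changed sign. Nr1i2, dead against live, stood at −0.29 with the mixed library added at −0.0182 with treatment left out of the model and at −0.22 with genotype added, where Onecut1 stood at 0.22. Prox1, NAC against placebo, stood at 0.0062 with relative log expression size factors and 0.0016 on library size alone in liver-content libraries, and at −0.10 on library size alone in lung-content libraries. Leaving out 1 liver-content library at a time, the dead against live estimates ran from −1.11 to 0.15 for Nr0b2, from −1.19 to 0.15 for Nr1i3 and from −0.0452 to 0.34 for Nr1i2. The NAC against placebo estimates ran from −1.08 to 0.17 for Nr0b2, from −0.49 to 0.0567 for Nr1h4, from −0.95 to 0.21 for Nr1i3 and from −0.16 to 0.0902 for Prox1, and the interaction for Prox1 from −0.19 to 0.45. In lung-content libraries Cebpa ran from −0.0395 to 0.47 for dead against live pups and from −0.0801 to 0.43 for NAC against placebo. For dead against live pups in liver-content libraries Foxa3, Prox1, Cebpa and Nr1h4 were below 0, and Hnf4a above it, under all alternatives tried, although Nr1h4 came to −0.0438 without the library labelled dead heterozygous placebo liver and Hnf4a to 0.02 with the mixed library added. The interaction without the library labelled dead heterozygous placebo liver, and Onecut1 with a mean of at least 10 CPM, gave no value. The number of factors that did not overlap between contents was 8 on library size alone or with the mixed library set among the liver-content libraries, and 7 with it among the lung-content libraries. Over the 8 labelled pairs, values past the fold numbered 65, and 61 to 65 under the alternatives.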
